A study of Mus musculus with 26 samples.

Results

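C2C12 is a mouse myoblast line that divides in serum-rich growth medium and differentiates into contractile, multinucleated myotubes after a switch to serum-poor differentiation medium. The cells described here carried a control siRNA (siCtrl) and were sampled at 0 h, before the switch, and at 24 h after it. They were chosen by their sample labels as the siCtrl libraries at both time points, 6 of the 26 RNA-Seq libraries of the series, with 3 at each time. The cells were transfected with siRNA while still dividing and again when differentiation was induced, so effects of the medium and of the later transfection cannot be told apart. The sense strand of siCtrl was uucuccgaacgugucacgu and its antisense strand was acgugacacguucggagaa. Replicate 1 at each time came from passage 11 and its RNA was extracted with TRIzol, whereas replicates 2 and 3 came from passage 14 and were extracted with the NucleoSpin kit, so extraction and passage cannot be told apart. The question addressed here was which genes change during the opening day of normal differentiation, and the siSMYD3#1 and siSMYD3#2 knockdown libraries entered only to share the estimate of spread and for the test of where the siCtrl change differed from theirs.

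Myogenic differentiation is driven by the MyoD family of basic helix-loop-helix factors. Myod1 and Myf5 mark the committed myoblast, and myogenin (Myog) is switched on as the cell leaves the cell cycle. Together with MEF2 factors they bind E-boxes and A/T-rich elements of genes for the contractile apparatus. Id proteins oppose them by taking up their E-protein partners, and mitogens in serum hold the programme back through cyclin D1 and growth factor signalling.

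Total counts of the 6 libraries ranged from 15333299 to 60398170, with a median of 26397464, and the 10 most abundant genes took 5.1% to 6.71% of the counts of a library. Levels are CPM, counts scaled to the size of each library after TMM correction, and per-replicate values are listed in the order of replicates 1, 2 and 3, so that the TRIzol library comes first. The 8 markers of the myoblast list were all tested and summed to between 568 and 1900 CPM at 0 h and between 1060 and 2880 CPM at 24 h. The TRIzol library was the lowest at both times. Cdh15, M-cadherin, was at 72.1, 191 and 242 CPM at 0 h and at 298, 430 and 423 CPM at 24 h. Of the marker lists for other cell types, those for endothelium, blood cells and epithelium summed to 6.75 CPM or less in every library. Ptprc, Adgre1 and Itgam of blood cells, Cdh5 of endothelium, Epcam and Krt18 of epithelium and Adipoq, Plin1 and Cfd of adipocytes held 3 counts or fewer in each of the 6 libraries. The adipocyte, osteoblast and cardiac lists summed to 141 CPM or less, and the neural list to between 42.7 and 144 CPM at 0 h and between 97.8 and 156 CPM at 24 h. The smooth muscle list had 3 of 5 tested members raised and a sum of 827 to 2310 CPM at 0 h and 1920 to 4050 CPM at 24 h, and most of it came from Acta2, which young skeletal muscle cells also express. In the TRIzol libraries the smooth muscle sum (2314 and 4050 CPM) was above the myoblast sum at both times, and in the NucleoSpin libraries it was below. The part of these markers in the results was not tested. Smyd3, the target of the knockdown arms, was at 21.7, 20.5 and 19.5 CPM at 0 h and at 20.7, 17.8 and 19.9 CPM at 24 h in these control cells, a log2 change of -0.08 ± 0.16 (SE) with an adjusted p of 0.723.

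Of the 15820 genes tested, 4655 changed between 0 h and 24 h by edgeR's quasi-likelihood test at a Benjamini-Hochberg adjusted p under 0.01, which is 29.4% of them. The 2309 raised genes (14.6%) and the 2346 lowered genes (14.8%) were close in number but not in size. A log2 change of 1 or more was reached by 1046 raised and 534 lowered genes, a change of 3 or more by 183 and 19, and a change of 5 or more by 60 and 2. The median log2 change was 0.91 among raised genes and -0.67 among lowered genes, against 0.03 over all genes tested. Raised genes together took 9.2% to 10.2% of a library's counts at 0 h and 16.4% to 17.6% at 24 h, while lowered genes went from 24.6% to 26.3% down to 16.4% to 17.2%. The NucleoSpin libraries alone gave 2532 raised and 2529 lowered genes, and in a model without the extraction term the counts were 748 and 928. The TRIzol pair and the NucleoSpin libraries gave log2 ratios of the same sign for 4633 of the 4655 genes. These genes were called from the same libraries, which favours equal signs, so the agreement is no separate evidence. In bulk RNA a gene that is higher because more cells express it and a gene that is higher in each cell cannot be told apart, and this holds for every change below.

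**Figure D1:**
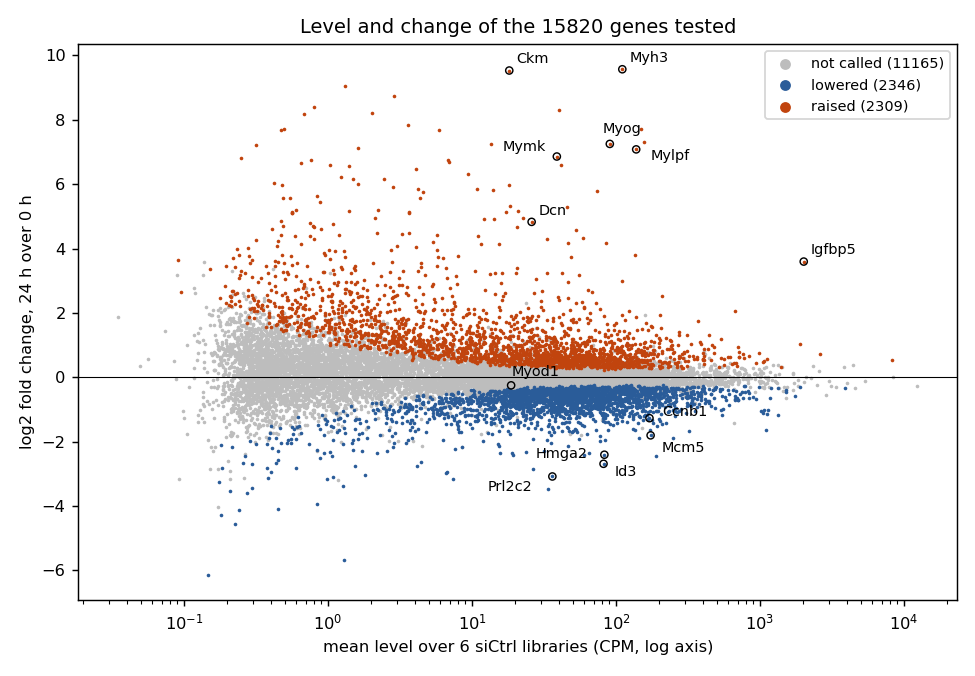
Each point is a gene, with its mean level over the 6 siCtrl libraries in CPM on a log axis and its log2 fold change from 0 h to 24 h on the vertical axis. The cloud of raised genes (2309) reaches up to Myh3 at 9.57, only 19 of the lowered genes (2346) lie at a fall of 3 or more, and 11165 genes were not called.

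Over all 15820 genes tested 2309 rose and 2346 fell, 29.4% called. By kind of gene, among 12629 protein-coding genes tested 2090 rose and 2180 fell. Of 452 long intergenic noncoding RNAs 76 rose and 15 fell, and of 447 antisense RNAs 49 rose and 3 fell. Of 1279 processed pseudogenes 16 rose and 110 fell. Most such pseudogenes are copies of abundant genes, and reads of parent and copy may be shared between them, so their values are uncertain.

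Among the myogenic transcription factors 8 of 21 tested members rose and 1 fell, with a median log2 change of 0.48. The raised count was 5 with the 6 siCtrl libraries alone and when replicate 1 or 3 at 0 h or replicate 1 at 24 h was left out. Myog (ENSMUSG00000026459) stood far above the rest. It was at 0.184, 1.10 and 1.87 CPM at 0 h and at 55.6, 222 and 263 CPM at 24 h, so the groups did not overlap and the TRIzol library was the lowest at both times. The mean went from 1.05 ± 0.84 to 180 ± 110 CPM (SD, n = 3), a log2 change of 7.25 ± 0.38 (SE) with an adjusted p of 8.45e-09. Myod1, the factor that commits cells to the lineage, did not pass the test. It was at 6.41, 27.4 and 31.4 CPM at 0 h and at 9.25, 20.3 and 17.4 CPM at 24 h, with an adjusted p of 0.508, and it was higher at 24 h in the TRIzol pair and lower in the NucleoSpin libraries. Myf5 was 82.2, 90.9 and 83.4 CPM and then 107, 111 and 101 CPM, a log2 difference of 0.31 with an adjusted p of 0.0228, although its 24 h libraries lay above all 0 h libraries. Per length of transcript, Myog went from 0.703 to 120.5 RPKM, Myod1 from 11.7 to 8.41 RPKM and Myf5 from 41.1 to 50.8 RPKM, so at 24 h Myog had the highest mean of the 3 genes, although in the TRIzol library its CPM was below that of Myf5.

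The partners of the MyoD family moved less. Mef2a, a MADS-box factor that works with MyoD proteins, rose from 65.6, 108 and 96.7 CPM to 242, 262 and 288 CPM, a log2 change of 1.57 ± 0.18. Mef2d rose by 0.44 and Mef2c, at 0.699 to 1.17 CPM at 0 h, did not pass the test (adjusted p = 0.501). Srf, which drives serum-response and actin genes, fell by 0.40 on the log2 scale.

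Inhibitors of the myogenic factors were split, with 7 of 16 raised and 6 lowered, and their median of 0.05 lay between -0.25 and 0.26 over the processing alternatives. The 3 tested Id genes all fell, with a median of -2.69. Id3 was at 175, 110.2 and 117 CPM at 0 h and at 72.7, 8.06 and 9.14 CPM at 24 h. All 24 h libraries lay below the 0 h libraries, but the TRIzol library kept far more Id3 than the others, and the log2 ratio was -1.26 in the TRIzol pair and -3.65 with NucleoSpin. Its call was lost with the 6 siCtrl libraries alone (adjusted p = 0.0252). Id2 went from 69.5, 37.7 and 31.6 CPM to 11.9, 3.55 and 4.70 CPM, a log2 change of -2.86 ± 0.17 with an adjusted p of 5.74e-10. Hmga2, a chromatin protein of dividing progenitors, went from 127, 161 and 132 CPM to 22.1, 29.0 and 28.4 CPM. Of 13 tested repressors 7 rose, among them Zeb1 with a log2 change of 1.47, Hdac4 with 0.99, Hdac9 with 2.05 and Heyl, a Notch target, with 2.17.

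Genes of the contractile apparatus were among the largest rises. The list of thick filament genes had 24 members, of which 11 passed the filter on low counts, and 9 rose and none fell. Without that filter 24 were tested, 12 rose and 0 fell, and the median was 2.34 against 4.39 with it. The summed level of the list went from 15.7 ± 3.7 to 714 ± 319 CPM. Myh3, embryonic myosin heavy chain, was at 0.147, 0.293 and 0.343 CPM at 0 h and at 83.2, 269 and 311 CPM at 24 h. This was a log2 change of 9.57 ± 0.53, the largest of the named genes. Mylpf (ENSMUSG00000030672), the fast regulatory light chain, was at 1.03, 2.45 and 2.38 CPM and then at 154, 297 and 372 CPM, a log2 change of 7.08 ± 0.33. Mylf-ps, a processed pseudogene of a myosin light chain, rose by 6.74. How the counting split reads between it and the light chain genes is not known. Mybph, a myosin-binding protein, and Myl1, an essential light chain, rose by 8.29 and 6.59. Among myosins of adult or slow fibres, Myh7 reached 0.774, 1.89 and 1.63 CPM at 24 h from 0.147, 0 and 0.0514 CPM.

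Thin filament genes had 18 of 22 tested members raised, 1 lowered and a median of 2.31, which was 2.5 without the filter on low counts. Each of the 7 troponin genes tested rose, and their sum went from 84.2 ± 11.5 to 895 ± 290 CPM. Tnnt3, fast troponin T, was at 2.03, 2.67 and 2.86 CPM at 0 h and at 87.0, 167 and 178 CPM at 24 h. Slow and cardiac isoforms rose beside it, with log2 changes of 4.58 for Tnni1, 4.16 for Tnnc1 and 2.53 for Tnnt2. Acta1, skeletal alpha-actin, was at 4.53, 1.24 and 1.03 CPM at 0 h, where the TRIzol library was the highest, and at 115, 354 and 456 CPM at 24 h, where it was the lowest. Its log2 change of 7.31 therefore had a wide standard error of 0.90. Actc1, cardiac alpha-actin, rose by 7.70 ± 0.51. Acta2, smooth muscle alpha-actin, was already at 2169, 721 and 942 CPM at 0 h and at 3893, 1734 and 1880 CPM at 24 h, so the groups overlapped although the log2 change of 1.04 passed the test. Tpm3, which encodes tropomyosins outside fast fibres, was the only lowered member, at -0.40, and its call was lost with a replicate block (adjusted p = 0.0109) and when any library other than replicate 1 at 24 h was left out (adjusted p up to 0.0645).

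Giant scaffold proteins, Z-disc proteins and the chaperones that fold myosin gave 22 raised and 0 lowered of 31 tested, with a median of 1.79. With the NucleoSpin libraries alone, 26 rose and 2 fell. Unc45b, a myosin chaperone, went from 0.0368, 0 and 0.0857 CPM to 5.17, 12.3 and 17.7 CPM, a log2 change of 7.67 ± 0.48. Ttn, titin, was at 4.23, 44.9 and 36.1 CPM at 0 h and at 104, 253 and 217 CPM at 24 h. The TRIzol library was the lowest at both times, the log2 change was 2.98 ± 0.69, and the call was lost when any library other than replicate 3 at 24 h was left out, with adjusted p-values up to 0.0197. Smyd1, a methyltransferase of striated muscle, was at 0.184, 15.6 and 15.7 CPM and then at 10.4, 61.7 and 79.5 CPM, so the groups overlapped, and its adjusted p rose up to 0.0141 when any library other than replicate 2 at 24 h was left out. Des, desmin, was at 67.3 CPM in the TRIzol library at 0 h and at 842 and 945 CPM in the others, and it rose by 0.71 with overlapping groups.

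**Figure D2:**
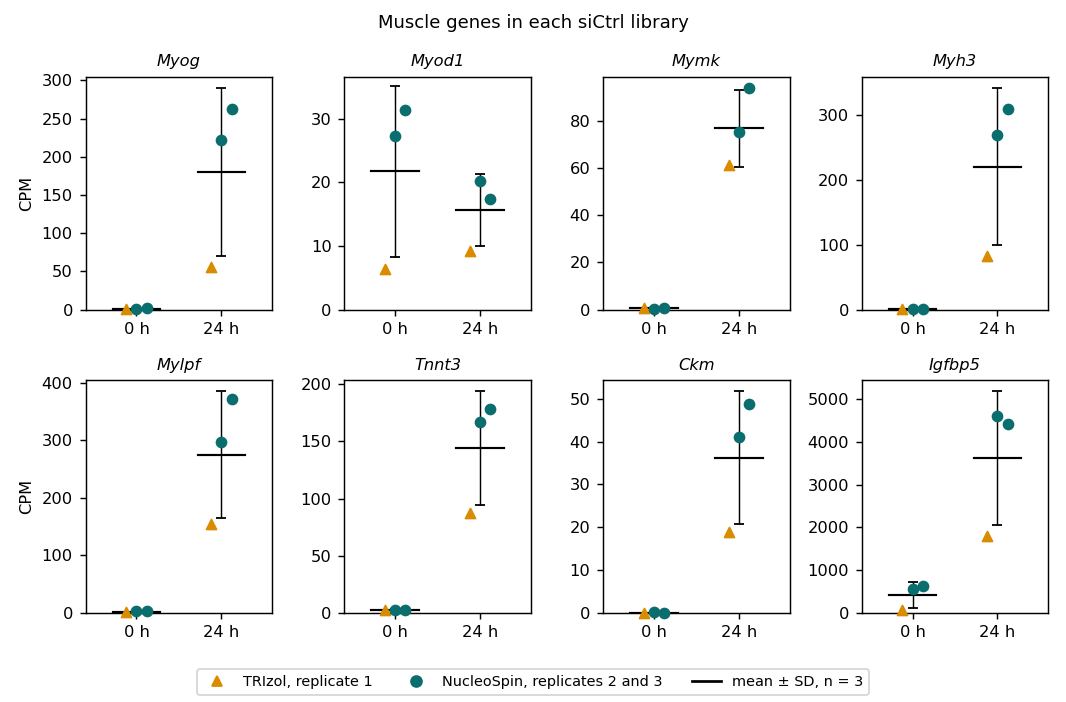
Level in CPM (linear axis from 0) of 8 genes in each siCtrl library at 0 h and 24 h, with triangles for the TRIzol library, circles for NucleoSpin libraries and bars for the mean ± SD of 3. Every gene except Myod1 lay higher in all 24 h libraries than in any 0 h library, and at 24 h the TRIzol library was the lowest in each panel.

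Calcium handling and membrane excitation rose with the filaments. Of 23 tested genes of excitation-contraction coupling 16 rose and 1 fell, with a median of 1.79. Ryr1, the calcium release channel, went from 1.62, 1.32 and 1.65 CPM to 31.5, 42.6 and 44.7 CPM. Casq2, a calcium buffer of the sarcoplasmic reticulum, rose by 5.14 and Hrc, another calcium-binding protein of that store, by 6.33. The fast calcium pump Atp2a1 rose from 0.589, 2.63 and 3.09 CPM to 23.6, 112 and 131 CPM, whereas Atp2a2, the pump of slow muscle and of most other cells, fell from 389, 450 and 463 CPM to 283, 308 and 340 CPM. Cacna1s, the voltage sensor, and Scn4a, the muscle sodium channel, held 3 counts or fewer in every 0 h library, and their rises were at least 32.3-fold and at least 16.6-fold, bounds computed with 3 counts in each 0 h library.

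Both fusogens of the list rose. Mymk, myomaker, was at 0.626, 0.403 and 0.840 CPM at 0 h and at 61.5, 75.4 and 94.1 CPM at 24 h, a log2 change of 6.86 ± 0.36 with an adjusted p of 2.22e-09. Mymx, myomixer, was at 0, 0.439 and 0.549 CPM and then at 6.44, 27.1 and 30.4 CPM. Per length, Mymk reached 51.0 RPKM and Mymx 20.7 RPKM. The whole list of fusion and adhesion had 10 raised and 2 lowered of 24 with a median of 0.29, and 0 were lowered without replicate 3 at 0 h or replicate 2 or 3 at 24 h and 1 without replicate 2 at 0 h. Itga7, a laminin receptor of myotubes, and Ncam1 rose by 1.10 and 0.89.

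At the neuromuscular junction 6 of 10 tested genes rose and 0 fell. The raised count was 3 without replicate 2 at 0 h, 4 without replicate 1 at 0 h or replicate 1 or 3 at 24 h, and 2 of 8 with the 6 siCtrl libraries alone. Chrng, the fetal acetylcholine receptor subunit, went from 2.47, 6.18 and 8.25 CPM to 69.1, 128 and 140.4 CPM, and its log2 change of 4.33 ± 0.18 had an adjusted p of 1.93e-11. The calls of the raised subunits Chrna1 and Chrnd were lost when replicate 1 or 2 at 0 h or replicate 1 at 24 h was left out, with adjusted p-values up to 0.022 and 0.0283. Lrp4, the agrin receptor, rose from 44.1, 26.2 and 30.7 CPM to 208, 90.4 and 98.5 CPM. Of 19 tested genes of the dystrophin complex 10 rose and 0 fell, among them Lama2, a laminin chain of the muscle basement membrane, with a log2 change of 2.61 ± 0.15.

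In muscle energy metabolism 9 of 35 tested genes rose and 1 fell, 28.6% called against 29.4% of all genes tested. Of 4 listed muscle isoforms of mitochondrial proteins 3 passed the filter on low counts and were raised, and the group summed to a mean of 2.12 CPM at 0 h and 11.9 CPM at 24 h. Genes this low pass the filter more easily when they are high at either time, so no conclusion is drawn from their count. Ckm, muscle creatine kinase, held 3 counts or fewer at 0 h in each library and was at 18.96, 40.98 and 48.78 CPM at 24 h, a rise of at least 400-fold. Mb, myoglobin, rose by at least 19.1-fold and Cox6a2, a muscle subunit of cytochrome c oxidase, by at least 30.9-fold, from 3 counts or fewer in each 0 h library. Of 22 genes of glycolysis and glucose uptake 2 rose and 1 fell, with a median of 0.06. With the NucleoSpin libraries alone the whole energy list had 18 raised and 1 lowered of 36. Within the TRIzol pair 4 of the 22 glycolysis genes were higher at 24 h, against 17 of 22 with NucleoSpin. Among 76 nuclear genes of oxidative phosphorylation 5 rose and 4 fell (11.8% called), and with 1 library left out 3 to 5 rose and 1 to 3 fell. The 13 mitochondrial genes gave no call, and 11 of them were higher at 24 h in the TRIzol pair while 0 were with NucleoSpin.

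The promoters of genes of these groups are shown because they carry E-boxes, the letters CANNTG that MyoD-family proteins bind. Each window runs from 250 bases before to 50 bases after the transcription start in RefSeq (GRCm38.p6), 5′ to 3′ along the gene, with E-boxes in capitals. The Myog window is chr1:134289754-134290053 on the plus strand, that of Mylpf is chr7:127211358-127211657 on the plus strand and that of Ckm is chr7:19410844-19411143 on the plus strand.
Myog: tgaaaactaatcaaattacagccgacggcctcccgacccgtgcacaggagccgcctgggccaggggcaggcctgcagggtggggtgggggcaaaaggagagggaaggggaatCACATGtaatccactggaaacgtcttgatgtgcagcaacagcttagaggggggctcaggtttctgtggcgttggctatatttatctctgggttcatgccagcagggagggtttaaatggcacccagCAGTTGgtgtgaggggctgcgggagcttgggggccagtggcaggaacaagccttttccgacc
Mylpf: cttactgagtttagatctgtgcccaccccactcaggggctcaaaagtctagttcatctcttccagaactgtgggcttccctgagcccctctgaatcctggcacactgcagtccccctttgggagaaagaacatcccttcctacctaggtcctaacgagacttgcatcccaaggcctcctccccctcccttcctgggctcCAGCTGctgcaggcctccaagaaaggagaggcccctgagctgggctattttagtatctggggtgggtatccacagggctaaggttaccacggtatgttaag
Ckm: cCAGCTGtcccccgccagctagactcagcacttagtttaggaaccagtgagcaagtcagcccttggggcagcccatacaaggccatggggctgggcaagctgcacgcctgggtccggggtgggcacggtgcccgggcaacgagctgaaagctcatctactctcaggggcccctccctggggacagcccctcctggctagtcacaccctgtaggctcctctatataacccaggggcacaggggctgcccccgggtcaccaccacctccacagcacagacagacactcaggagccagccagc
The Myog window held 2 E-boxes and the other windows 1 each. As CANNTG is a loose pattern, windows of all tested genes held it in 64.3% of cases, those of raised genes in 70.2% and those of lowered genes in 60.6%. Over all 32851 windows searched, those of untested genes included, the share was 72.3%, above that of raised genes. The letters CAGCTG, which are among the E-boxes and are present in the Mylpf and Ckm windows, were found in 22.8% of 2296 windows of raised genes, in 11.8% of 2120 windows of lowered genes and in 15.7% of 13477 windows of all tested genes. The MEF2-like letters CTA and TAG with any 4 bases between them were found in 15.2% of 66 windows of filament and Z-disc genes and in 3.2% of windows of all tested genes. Over all windows searched CAGCTG was found in 16.3% and the MEF2-like letters in 3.7%. Both strands were searched, 10519 of the tested genes had a window, and a match of letters is a description that does not show binding.

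Genes of DNA replication and S phase fell in all but a few members. Of 66 tested members 63 fell and 0 rose, with a median log2 change of -1.14, and their summed level went from 7133 ± 398 to 3078 ± 143 CPM. All 19 genes of the origin and helicase group fell. Mcm5, a subunit of the replicative helicase, was at 304, 237 and 271 CPM at 0 h and at 86.9, 68.7 and 76.4 CPM at 24 h, a log2 change of -1.81 ± 0.15 with an adjusted p of 1.27e-07. Cdc6, which loads that helicase, fell by 2.06, and Mcm10, which activates it, fell from 61.3, 50.8 and 47.2 CPM to 15.7, 12.7 and 12.7 CPM. Rrm2, which supplies deoxynucleotides, and Pcna, the polymerase clamp, fell by 1.68 and 1.44 on the log2 scale. The members that were not called were E2f8, Rfc3 and E2f2, with log2 differences of -0.61, -0.49 and 0.75, and they were picked out after their values were seen.

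Mitotic genes fell in nearly all members. Of 60 tested members 58 fell and 0 rose, with a median of -0.94. Cdk1, the mitotic kinase, was at 205, 332 and 308 CPM at 0 h and at 95.0, 117 and 128 CPM at 24 h. Its partner Ccnb1, cyclin B1, went from 182, 270.1 and 276 CPM to 87.9, 97.5 and 111 CPM, a log2 change of -1.27 ± 0.10. The groups did not overlap for either gene. Mki67, the proliferation marker Ki-67, fell by 0.70 and Top2a by 0.99. The summed level of the list went from 9170 ± 969 to 4830 ± 312 CPM.

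Regulators of the G1 phase moved in both directions, with 10 raised and 7 lowered of 26. The lowered count was 4 when replicate 2 at 0 h or replicate 2 or 3 at 24 h was left out, and 2 with the 6 siCtrl libraries alone. Cdkn1a, the CDK inhibitor p21, rose from 322, 216 and 234 CPM to 596, 622 and 669 CPM, and Cdkn1c, p57, rose from 0.147, 0.146 and 0.240 CPM to 1.09, 1.01 and 2.48 CPM. Per length, Cdkn1a reached 177 RPKM. Ccnd1, cyclin D1, fell from 428, 352 and 344 CPM to 114, 226 and 235 CPM, and its adjusted p was 0.0288 with the 6 siCtrl libraries alone. Ccnd3, the D cyclin of differentiated muscle, rose from 148, 134 and 165 CPM to 189, 247 and 269 CPM. The pocket protein gene Rb1 rose by 0.89 and its relative Rbl1 fell by 0.81. Ccng2, an atypical cyclin of resting cells, rose by 1.78. Myc fell by 0.82, and its call was lost with the 6 siCtrl libraries alone (adjusted p = 0.013).

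**Figure D3:**
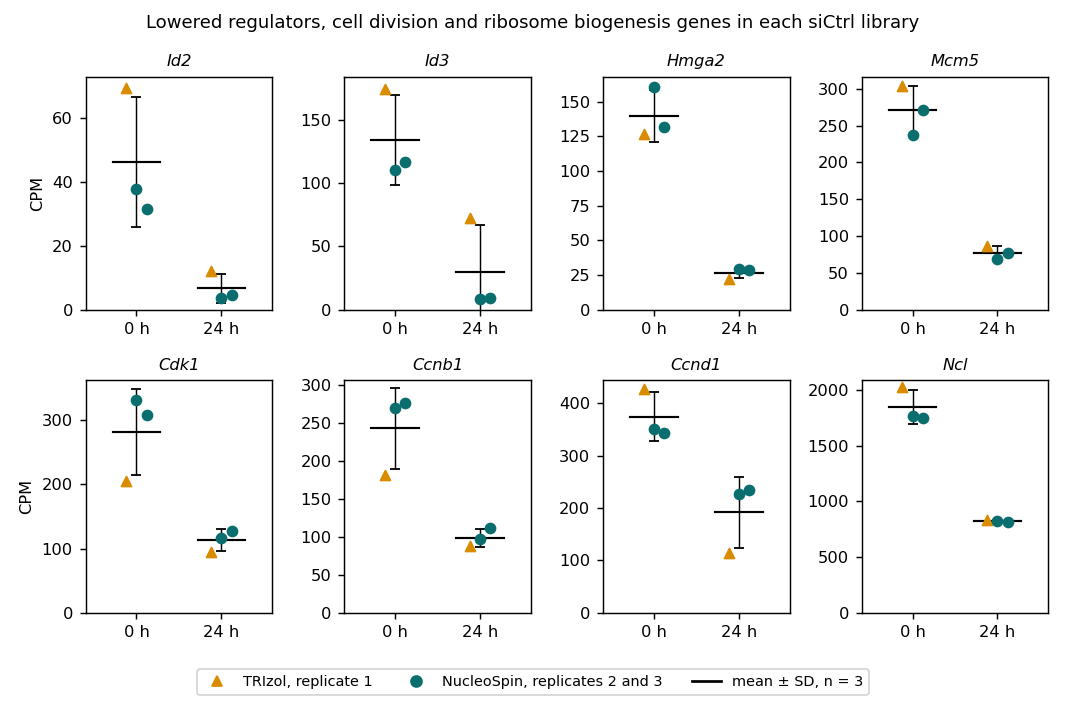
Level in CPM (linear axis from 0) of 8 lowered genes in each siCtrl library, with triangles for TRIzol, circles for NucleoSpin and bars for the mean ± SD of 3. All 24 h libraries lay below all 0 h libraries in every panel, and the TRIzol library kept the most Id3 at 24 h.

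The promoters of Cdk1 and Mcm10 are shown as examples of genes that fell. CCAAT boxes and the CHR element TTTGAA, which are known from cell-cycle promoters, are in capitals on either strand. The Cdk1 window is chr10:69352863-69353162 and the Mcm10 window chr2:5012742-5013041, both on the minus strand and printed 5′ to 3′ along the gene.
Cdk1: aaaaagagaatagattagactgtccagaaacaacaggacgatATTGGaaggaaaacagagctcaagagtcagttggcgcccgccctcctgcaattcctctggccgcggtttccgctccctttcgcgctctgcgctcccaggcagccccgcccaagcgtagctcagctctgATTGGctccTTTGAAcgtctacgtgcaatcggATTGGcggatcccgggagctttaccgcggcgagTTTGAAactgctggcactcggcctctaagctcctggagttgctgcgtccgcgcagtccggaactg
Mcm10: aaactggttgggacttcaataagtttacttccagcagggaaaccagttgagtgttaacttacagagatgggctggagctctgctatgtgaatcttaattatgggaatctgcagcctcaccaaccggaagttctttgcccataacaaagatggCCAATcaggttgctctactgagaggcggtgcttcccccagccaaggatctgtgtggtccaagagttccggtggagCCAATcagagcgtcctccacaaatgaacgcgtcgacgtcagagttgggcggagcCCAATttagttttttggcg
Cdk1 held 3 CCAAT boxes and 2 CHR elements, and Mcm10 held 3 CCAAT boxes. In windows of the replication and mitosis lists, CCAAT was found in 66.4% and TTTGAA in 43.1% of 116. The shares were 37.7% and 12.2% over windows of all tested genes and 41.1% and 15.9% over those of all lowered genes. Over all 32851 windows searched, those of untested genes included, they were 37.4% and 17.9%.

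Ribosome biogenesis fell beside the cell cycle. Of 52 tested genes 48 fell and 0 rose, with a median of -0.85. Ncl, nucleolin, was at 2027, 1769 and 1750 CPM at 0 h and at 836, 822 and 820 CPM at 24 h. Nop56 and Nop58, core proteins of the particles that methylate ribosomal RNA, fell by 1.37 and 1.32, and Dkc1, which modifies it by pseudouridylation, fell by 1.26. Nop56 shares 328 and Ncl 216 exon bases with small RNA genes or other genes on the same strand, so a part of their counts is uncertain. Among the ribosomal proteins themselves 0 rose and 7 fell of 80, with a median of -0.07, and 3 or 4 fell when any library other than replicate 1 at 0 h was left out. Snhg1, a host gene of small nucleolar RNAs, fell by 1.10.

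Genes of the histone clusters, the linker histone gene Hist1h1c among them, gave 7 raised and 1 lowered among 25 tested of 67 listed. That is 32.0% called, against 29.4% of all genes tested. Their main transcripts lack a poly(A) tail, so poly(A) selection samples these genes poorly. Their median ranged from -0.09 to 1.08 over the processing alternatives. Hist1h1c, a linker histone, rose from 64.9, 40.4 and 40.1 CPM to 166, 145 and 144 CPM. Hist4h4, at 0.368 to 0.514 CPM at 0 h, fell to 3 counts or fewer in each 24 h library, and its call was lost when any library other than replicate 1 at 0 h was left out, with adjusted p-values up to 0.0218.

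Of 37 immediate early and growth factor feedback genes 11 fell and 3 rose, 37.8% called against 29.4% of all genes tested. The falls lay mostly among the 17 genes of MAPK feedback and ligands, with 10 lowered and 2 raised. Of 20 AP-1, EGR and nuclear receptor genes 1 fell and 1 rose. The whole list had 19 lowered and 3 raised in the NucleoSpin libraries alone, and 7 lowered and 1 raised without replicate 1 at 24 h. Dusp5, a phosphatase induced by ERK signalling, fell from 41.4, 59.1 and 58.2 CPM to 9.82, 11.1 and 11.2 CPM. Fosl1, an AP-1 protein, fell by 1.78 and the EGF-family ligands Ereg and Areg by 1.29 and 1.15. Egr1 had no call, since it was higher at 24 h in the TRIzol pair (66.8 and 157 CPM) and lower in the NucleoSpin libraries (266 and 336 CPM, then 44.9 and 44.7 CPM).

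In the list of IGF and other growth factors and their receptors, 9 of 27 tested members rose and 4 fell, with a median of 0.28, and the counts were 9 and 8 with the NucleoSpin libraries alone. Igfbp5, an IGF-binding protein that muscle cells secrete, was at 67.1, 555 and 622 CPM at 0 h and at 1805, 4608 and 4425 CPM at 24 h, and its log2 change was 3.59 ± 0.41. Igfbp3 rose from 4.27, 3.44 and 3.29 CPM to 32.8, 39.4 and 39.8 CPM. The IGF group had 6 raised and 0 lowered of 11 tested. Fgf21, a stress hormone of muscle and liver, depended on the library, with 0.633 CPM in the TRIzol library and 41.6 and 40.1 CPM in the others at 24 h. Among other ligands Fgf7 and Hgf fell by 2.33 and 1.04 on the log2 scale.

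Notch, Wnt and TGF-beta signalling showed single strong members and medians near 0. Dll1, a Notch ligand, rose from 1.25, 1.61 and 1.92 CPM to 34.3, 25.9 and 27.6 CPM. Of 14 Notch genes 2 rose and 2 fell, 28.6% called against 29.4% of all genes tested. In the Wnt list, with 6 raised and 3 lowered of 36 (25.0% called), the R-spondin receptor gene Lgr6 fell. It was at 166, 10.9 and 11.4 CPM at 0 h, with 9.50 CPM in the TRIzol library and 1.62 CPM or less in the others at 24 h, so the TRIzol library held most of its signal at both times. In the TGF-beta and BMP list, with 5 raised and 5 lowered of 26 (38.5% called), the ligand Tgfb2 and its receptor Tgfbr2 rose by 1.52 and 1.13. The BMP antagonist Grem1 and the inhibitory Smad7 and Smad6 fell by 2.00, 1.10 and 1.00 on the log2 scale.

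Of 62 matrix genes 19 rose and 9 fell (45.2% called), and collagen chains gave 8 raised and 0 lowered of 31 (25.8%). Over all genes tested 29.4% were called. The collagen count was 5 when replicate 2 or 3 at 0 h was left out, and the collagen median went from 0.38 to 0.16 without replicate 1 at 24 h. Dcn, decorin, rose from 0.773, 2.71 and 1.96 CPM to 22.5, 59.9 and 67.9 CPM, a log2 change of 4.83 ± 0.23. Col4a5, a basement membrane collagen, rose by 1.44. Mfap4 held 3 counts or fewer at 0 h in each library and rose by at least 10.4-fold. Spp1, osteopontin, fell from 1821, 1544 and 1670 CPM to 537, 460.0 and 605 CPM, and Ccn2, a target of serum and YAP signalling, fell by 1.69. Fn1, fibronectin, the most abundant gene of the list, rose by 0.55 with overlapping groups, and its call was lost with a replicate block (adjusted p = 0.0117) and when any library other than replicate 1 at 24 h was left out (adjusted p up to 0.0514).

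Lists for immunity and stress came next. Of 40 interferon-stimulated and antigen presentation genes 12 rose and 0 fell, with a median of 0.61, which was 0.26 with the NucleoSpin libraries alone. Bst2, tetherin, rose from 3.68, 3.26 and 3.38 CPM to 6.05, 9.47 and 8.23 CPM. Among chemokines and cytokines 1 of 20 rose and 6 fell (35.0% called). Ccl7 and Ccl2, which attract monocytes, were lower by 2.13 and 1.77 on the log2 scale. In the ER stress and amino acid list 1 rose and 6 fell of 35, but 10 rose and 7 fell with NucleoSpin alone. Asns, asparagine synthetase, was at 122, 266 and 282 CPM at 0 h and at 32.0, 354 and 326 CPM at 24 h, so the TRIzol pair and the other libraries moved in opposite directions. The chaperone Hspa5 fell, from 863, 1207 and 1164 CPM to 540.1, 773 and 798 CPM.

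Of 28 autophagy and lysosome genes 13 rose, 0 fell and 15 were not called, with a median of 0.31. Map1lc3a, an autophagosome protein, rose from 39.6, 42.2 and 53.9 CPM to 126, 207 and 195 CPM. Among p53 targets and apoptosis genes 8 rose and 6 fell of 28, and Gtse1, a regulator of p53 in G2, fell by 1.10 on the log2 scale. Without replicate 3 at 0 h the p53 counts were 5 raised and 2 lowered, and without replicate 1 at 24 h they were 8 and 3. Of 37 genes of cholesterol and fatty acid synthesis 3 rose and 0 fell, 8.1% called against 29.4% of all genes tested. The 26 cholesterol genes were all higher at 24 h in the TRIzol pair and 10 of them were with NucleoSpin.

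Of 16 muscle splicing regulators 6 rose and 3 fell. Of 16 listed muscle ubiquitin ligase components 7 passed the filter on low counts, and 4 of these rose and 0 fell. That is 57.1% called, against 29.4% of all genes tested. Without the filter 4 of 14 rose, and with the 6 siCtrl libraries alone 2 of 6 rose. Low genes pass the filter more easily when they are high at either time, so no conclusion is drawn from this count. Rbm24, a muscle splicing factor, rose from 0.0368, 0.0732 and 0.0857 CPM to 3.45, 2.81 and 1.96 CPM. Rbfox1 held 3 counts or fewer in each 0 h library and rose by at least 10.7-fold. Ptbp1, which represses muscle exons, fell from 484, 369 and 406 CPM to 264, 207 and 215 CPM, and Mbnl3 fell by 1.33. Asb2, a muscle subunit of a ubiquitin ligase, rose by 3.95 ± 0.35. Among imprinted and noncoding RNA genes 3 rose and 2 fell of 9, with 2 or 3 raised and 1 lowered when any library other than replicate 3 at 0 h was left out. The noncoding RNA H19, transcribed beside Igf2, rose from 62.4, 389 and 462 CPM to 564, 1150 and 1382 CPM. Its call was lost with the 6 siCtrl libraries alone (adjusted p = 0.0113).

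Proliferins, prolactin-like hormones secreted by dividing cells, fell in all 3 tested genes. The call of Prl2c5 was lost with the NucleoSpin libraries alone (adjusted p = 0.0417), with the 6 siCtrl libraries alone (0.0202) and when replicate 1 or 2 of either time was left out (up to 0.0297). Prl2c2 went from 37.1, 79.3 and 78.6 CPM to 5.42, 8.42 and 8.10 CPM, a log2 change of -3.09 ± 0.20. Since Prl2c genes are near-identical copies, reads may be shared among them. Further large falls were those of Ptgs2, cyclooxygenase 2, from 131, 87.8 and 85.8 CPM to 24.6, 17.6 and 14.8 CPM, and of Nqo1, a quinone reductase, with a log2 change of -2.34. Slpi, a protease inhibitor, fell by 2.96 and Dusp9 by 2.35.

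**Figure D4:**
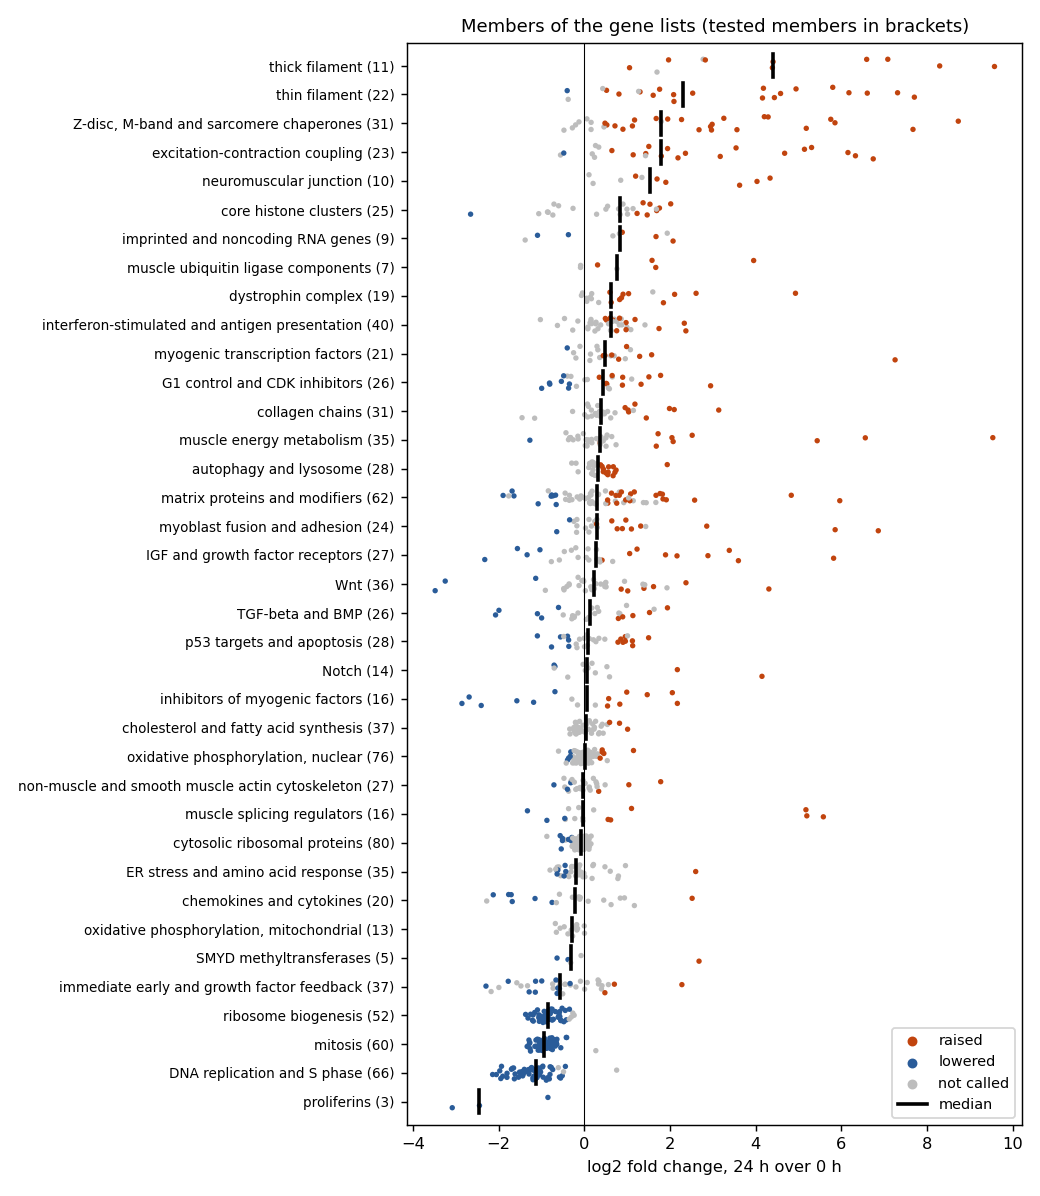
Log2 fold change from 0 h to 24 h of each tested member of the gene lists (points, coloured by call) with the median of each list as a black bar, ordered by median and without the cell type marker lists. Thick filament (median 4.39), thin filament (2.31) and Z-disc and excitation-contraction genes (1.79 each) stand at the top, and ribosome biogenesis (-0.85), mitosis (-0.94), DNA replication (-1.14) and the 3 proliferins (-2.45) at the bottom. Without the filter on low counts the thick filament median was 2.34, below the 2.5 of the thin filament list.

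The change of each list was also taken within each extraction method. With a pseudocount of 0.5 CPM, the median log2 ratio of the thin filament list was 1.92 in the TRIzol pair and 2.31 in the NucleoSpin libraries, and for DNA replication it was -1.09 and -1.16. Over all genes the medians were -0.01 and 0.02. The ER stress list stood at -0.67 and 0.09, mitochondrial genes at 0.33 and -0.49, cholesterol and fatty acid synthesis at 0.42 and -0.12, and ribosome biogenesis at -1.11 and -0.70. A TRIzol pair is a single library at each time, so these ratios carry no test, and whether extraction, passage or the culture accounts for them was not tested.

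**Figure D5:**
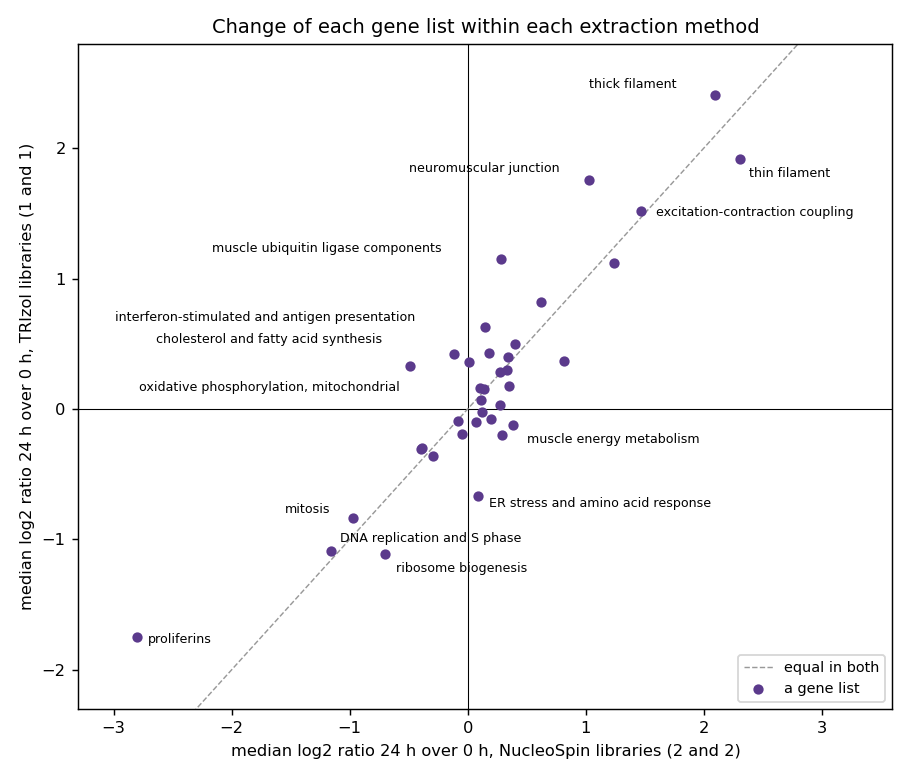
Median log2 ratio of 24 h over 0 h for each gene list in the NucleoSpin libraries (horizontal, 2 at each time) and in the TRIzol libraries (vertical, 1 at each time), with a dashed line where both are equal. Thin filament (2.31 and 1.92), DNA replication (-1.16 and -1.09) and mitosis (-0.97 and -0.84) lie near the line, muscle ubiquitin ligase components (0.28 and 1.15) and the neuromuscular junction (1.03 and 1.76) lie above it, and ER stress (0.09 and -0.67), mitochondrial oxidative phosphorylation (-0.49 and 0.33) and muscle energy metabolism (0.38 and -0.12) are among those that differ in sign.

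The change from 0 h to 24 h in siCtrl cells was then tested against that in the knockdown cells, with siCtrl as the shared reference of both tests. The change differed from that under siSMYD3#1 for 34 genes, 0.215% of those tested, and from that under siSMYD3#2 for 3 genes, 0.019%. Of the 34 genes 26 were raised in siCtrl, and the change was higher in siCtrl for 27. Mymk had a mean of 0.623 CPM at 0 h and 77.0 CPM at 24 h in siCtrl, against 0.915 and 7.10 CPM under siSMYD3#1, and its change was larger by 3.91 ± 0.55 on the log2 scale (adjusted p = 0.00324). Under siSMYD3#2 the means were 0.533 and 17.2 CPM, and that difference of 1.82 did not pass the test (adjusted p = 0.263). Mylpf, Tnnt3 and Ryr1 differed from siSMYD3#1 by 3.15, 2.89 and 3.29. Myog reached 180 CPM in siCtrl, 14.2 CPM under siSMYD3#1 and 41.7 CPM under siSMYD3#2 at 24 h, and the differences in its change had adjusted p-values of 0.0471 and 0.317. For Mcm5 the differences were -0.33 and -0.72, with adjusted p-values of 0.766 and 0.19. The genes that differed from siSMYD3#2 were Hist1h1c, Iffo1 and Tgfb3, and in each the rise was larger in siCtrl.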

How the data were processed

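RNA was measured as poly(A)-selected, stranded mRNA libraries. According to the submitters' processing notes and the methods, the authors aligned reads to GRCm38 with HISAT2 2.1.0, counted them per Ensembl gene with featureCounts of Subread 1.6.3, checked reads with FastQC 0.11.5, and deposited raw counts without normalization. The counting strand, the treatment of multiply mapped reads and the annotation release are not given in the sources used here, so counts of overlapping or antisense genes are uncertain, and 101 of the 283 named genes share exon bases with another gene. Each table listed 55341 genes, of which 54495 were in GENCODE M21, used here for symbols and lengths. Groups, times and extraction came from the sample labels, passages from the study's list of libraries.

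Counts were fitted in R 4.3.3 with edgeR 4.0.16 over the 18 siRNA libraries as 6 groups plus extraction method, after filterByExpr and TMM scaling, with a robust quasi-likelihood test and Benjamini-Hochberg adjustment over all 15820 genes at 0.01. The study's model had condition and extraction method as terms. Standard errors are the log2 change divided by the square root of F. The script was tested on simulated data. RPKM values were computed here from the deposited counts and exon lengths. A gene with 3 counts or fewer in each library of a time was treated as at the floor, which covers counting error only. Genes were named by rule: preset key genes of the lists, the 4 largest rises and falls of each list and the 15 largest overall with a mean of at least 100 counts, the 10 highest levels, the 5 largest differences from each knockdown, and called list members at the floor. The gene lists and the tests were chosen with earlier results of these data known.

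The alternatives were DESeq2 1.42.0, other scaling factors, no filter on low counts, the 6 siCtrl libraries alone, no extraction term, the NucleoSpin libraries alone, a replicate block, other thresholds and leaving out each library. Libraries sharing a number deviated together (correlations of 0.704, 0.412 and 0.563), and the numbers come from the study's list of libraries. The 2 NucleoSpin pairs correlated equally well when crossed (0.461 and 0.484) and by 0.028 once their own means were removed, so the pairing follows extraction and passage. The methods name biological replicates and do not say how the cultures were separated, so p-values measure the spread between these libraries. The 8 overexpression and vector libraries were not used.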

Additional observations from a re-analysis of the deposited data

Results flagged for a closer look

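Genes were singled out here because their change from 0 h to 24 h in siCtrl cells differed from that in knockdown cells by the test of the difference itself. Against siSMYD3#1 the log2 difference, siCtrl minus knockdown, was 3.91 ± 0.55 for Mymk (adjusted p = 0.00324), 3.57 ± 0.53 for Casq2 (0.0038), 3.29 ± 0.33 for Ryr1 (6.65e-05), 3.15 ± 0.48 for Mylpf (0.00699) and 3.09 ± 0.44 for Sox8 (0.0016). Sox8, a SOX-family transcription factor, went from 1.01 to 14.9 CPM in siCtrl and from 1.41 to 2.26 CPM under siSMYD3#1. Against siSMYD3#2 it was 1.05 ± 0.14 for Hist1h1c (0.00453), 0.88 ± 0.12 for Iffo1 (0.00496) and 0.83 ± 0.11 for Tgfb3 (0.00453). Iffo1, a gene of an intermediate filament family protein, went from 24.5 to 121 CPM in siCtrl and from 21.3 to 57.2 CPM under siSMYD3#2. At an unadjusted p under 0.05 the counts were 1388 genes for siSMYD3#1 and 1585 for siSMYD3#2.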

How the results depend on the processing

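The count of changed genes, 4655, was 5125 with DESeq2, 4614 with RLE and 4633 with upper-quartile factors, 5161 without a filter on low counts, 3918 with the 6 siCtrl libraries alone and 5061 with the NucleoSpin libraries alone. Leaving out 1 library gave 3583 to 3904 changed, 1721 to 1910 raised and 1771 to 2058 lowered genes. Without the extraction term the counts fell to 1676 changed, 748 raised and 928 lowered. With at least a log2 change of 1 they were 1580, 1046 and 534. The replicate block gave 4457 genes (2218 raised, 2239 lowered). Among named genes it ended 6 calls, Ccn1, Cfl1, Fn1, Ndufa13, Plk2 and Tpm3.

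The 34 genes that differed from siSMYD3#1 were 141 with DESeq2, 277 without the filter, 2 without the extraction term, 160 with the NucleoSpin libraries alone, 105 at an adjusted p under 0.05 and 19 to 78 with 1 library left out. The 3 genes that differed from siSMYD3#2 were 111, 230, 0, 175, 24 and 0 to 40 in the same order, 5 with upper-quartile factors and 1 at a log2 difference of 1 or more. The cause was not tested. Their replicate block counts were 27 and 3.

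Over the alternatives 3583 of 3953 values for 283 named genes kept their direction and side of the threshold, 345 lost a call, 25 gained one and 0 reversed. The extraction term accounted for 121 of the 345. Of 249 called named genes 47 lost the call when some library was left out. Depth limits genes near 3 counts, where only bounds are given.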

Other observations

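Levels per length were high at both times for several widely expressed genes. Lgals1, galectin-1, was at 5677 RPKM at 0 h and 4485 RPKM at 24 h, Eef1a1, the elongation factor that brings aminoacyl-tRNA to the ribosome, at 3355 and 3340 RPKM and mt-Co1, a mitochondrial subunit of cytochrome c oxidase, at 9026 and 7047 RPKM. None of these passed the test. Very short genes such as Gm23935, of 57 exon bases, had RPKM values of 12460 and 13760, with 70.9 CPM in the TRIzol library and 1298 and 761 CPM in the others at 0 h.

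Of 3 tested markers of fat cells 2 fell, Pparg and Lpl, the latter by 0.50 on the log2 scale, and the adipocyte list summed to between 94.7 and 114 CPM at 0 h and between 67.5 and 70.0 CPM at 24 h. The Lpl call was lost when replicate 1 at 0 h or replicate 2 or 3 at 24 h was left out, with adjusted p-values up to 0.0176. The Pparg call was lost when replicate 1 at 0 h or replicate 1 or 3 at 24 h was left out, with adjusted p-values up to 0.0316. Among 6 tested satellite and reserve cell markers 3 rose and 1 fell, and the summed level of the list went from 179 ± 11.7 to 163 ± 14.4 CPM. Cd34 rose by 0.94 with overlapping groups, Heyl rose by 2.17 and Hey1 fell by 0.69. The Hey1 call was lost when replicate 2 at 24 h was left out (adjusted p = 0.0134).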
